A study of Mus musculus with 7 samples.

Results

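The genes described here encode the TGF-beta ligands Tgfb1, Tgfb2 and Tgfb3, the receptor kinases Tgfbr1 and Tgfbr2, the integrin subunits Itgav and Itgb8, the inhibitor Smad7 and the secreted matrix protein Tgfbi. These 9 members were taken by symbol from the 32285 genes counted, and all 9 were found. Their transcripts were followed by droplet single-cell RNA sequencing in 7 libraries of whole brain tumours, each pooled from at least 2 mice and taken at about day 14. The tumours were grown in C57BL/6 mice, 7 to 10 weeks old and labelled wild type, from NSCG-mCherry cells, a line labelled EGFRvIII+ and Arf/Ink4a-/-. The labels give the same line, and so the same loss of Arf/Ink4a, for every group. One library came from untreated mice (UT). A pair of libraries came from mice given an IgG2b isotype antibody at 10 mg/kg (IgG 1 and IgG 2). Another pair came from mice treated with both the anti-VEGF antibody B20 (5 mg/kg) and anti-PD-L1 (10 mg/kg), called BP 1 and BP 2. One library added IPI-145, which blocks the delta and gamma forms of PI3K, by daily gavage at 10 mg/kg to the same 2 antibodies (BPI). The last came from mice given a CD40 agonist antibody at 100 µg in each of 2 doses (CD40), and it cannot be read from the labels if these mice also received a dendritic cell vaccine. The labels do not say that the replicates of IgG or BP were raised independently, so a p-value measures the spread between these pooled libraries only.

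TGF-beta is secreted in a latent form, in which the mature ligand stays wrapped in its own propeptide and is tethered to the matrix or to the cell surface. Integrins that contain the alpha-v chain, among them the alpha-v beta-8 pair encoded by Itgav and Itgb8, bind the propeptide and free or expose the ligand. The ligand then assembles the type II receptor (Tgfbr2) with the type I receptor (Tgfbr1), which phosphorylates SMAD proteins. Smad7 is induced by the pathway and blocks the type I receptor, and Tgfbi is named for its induction by TGF-beta. In the brain the pathway is known for maintaining microglia, and in tumours for restraining T cells.

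The 7 libraries held 68997476 to 186793886 unique molecular identifiers (UMIs, each standing for 1 captured transcript), and 48588 cells were kept. Levels are CPM, the UMIs of a gene scaled to a total of 1000000 UMIs, over all cells of 1 class in 1 library. The 6 cell classes described are tumour-like (33414 cells), microglia-like (2363), monocyte/macrophage-like (3425), T-like (2618), endothelial-like (377) and mural-like (195), where mural cells are pericytes and vascular smooth muscle. Endothelial-like cells reached 20 cells in 4 libraries and mural-like cells in 2, so both are described without a test. A cluster of 61 cells with Acta2, Tagln and Myh11 among its leading genes raised all fibroblast and most mural markers. It stayed unnamed and so outside the mural-like class. A class was often held by different clusters in different libraries. Microglia-like cells of BP 1 and UT lay mostly in cluster 27, led by complement and MHC class II genes, and those of the other 5 libraries in clusters 14 and 18. Most monocyte/macrophage-like cells of BP 1 lay in cluster 12, led by Ccl8 and Ccl24, and most of those elsewhere in cluster 11, led by Lyz2 and Ly6c2. T-like cells of BP 1 and UT lay mostly in cluster 15, with Gzmb among its leading genes, and those elsewhere mostly in cluster 13. Libraries shared at most 26 cell barcodes with each other.

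The tumour-like cells stand apart by library. The library names that the submitters gave IgG 1, BP 2 and BPI are numbered consecutively, and their tumour-like cells filled other clusters than those of UT, IgG 2, BP 1 and CD40. Of the 12 tumour markers, 8 were lower in each of these 3 libraries than in each of the other 4, 1 (Cdkn2a) was higher and 3 overlapped. Olig1 was at 0.0988 to 0.766 CPM in the 3 libraries and at 64.8 to 311 CPM in the other 4. Fabp7 was at 0.903 to 5.00 CPM against 71.0 to 172 CPM, and Ptprz1 at 0.325 to 1.10 CPM against 55.4 to 71.5 CPM. Egfr overlapped, at 184 to 226 CPM against 57.4 to 192 CPM. Wfdc2, singled out after its values were seen, was at 304 to 393 CPM in the 3 libraries and at 0.0793 to 2.66 CPM in the other 4. Cdkn2a, the gene of the Arf/Ink4a locus, was counted at 186 to 198 CPM in the 3 and at 144 to 171 CPM in the other 4, which goes against the label if the whole gene is lost. Which part is deleted is not given in the sources used here. These counts do not show whether the 7 tumours came from the same cells, as labelled. Both the IgG and the BP group hold 1 of the 3 libraries and 1 of the other 4. The difference thus enters their spread in tumour-like cells, and its cause was not tested. The other 4 libraries were not alike either. BP 1 held 4318 of the 4498 cells of cluster 2. Tumour-like cells of UT lay mostly in clusters 9, 10 and 17, and those of IgG 2 and CD40 mostly in clusters 3, 4, 6 and 7.

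Tgfb1, the ligand best known from immune cells, had a higher level in leukocytes than in tumour-like cells. Microglia-like cells held 184 to 391 CPM over the 7 libraries (median 241), monocyte/macrophage-like cells 251 to 354 (median 258) and T-like cells 75.5 to 306 (median 108). Tumour-like cells held 36.8 to 51.1 CPM (median 42.1), and no leukocyte class of any library fell into that range. Tumour-like cells were lower than microglia-like cells by a mean log2 difference of -2.50 ± 0.48 (SD, n = 7 libraries), lower than monocyte/macrophage-like cells by -2.54 ± 0.17, and lower than T-like cells by -1.56 ± 0.64. Each of these reached an adjusted p of 0.0272 in a two-sided exact sign-flip permutation test, with a raw p of 0.0156, the smallest that 7 libraries allow, adjusted by Benjamini-Hochberg over 54 pairs. All such log2 differences between classes are on the scale log2(CPM + 5). Microglia-like and monocyte/macrophage-like cells did not differ beyond the spread between libraries (-0.04 ± 0.45, adjusted p = 0.828 in the same exact test). Pooled endothelial-like cells held 123 CPM of Tgfb1 (95% exact Poisson interval 114 to 131) and mural-like cells 108 CPM (92.1 to 126). Such intervals cover counting error only.

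Because tumour-like cells were the most numerous, they still supplied 29.5% of all Tgfb1 UMIs in BP 1 and 85.2% in IgG 1, the lowest and the highest library. Microglia-like cells gave 36.2% in IgG 2 and 36.7% in CD40, and 2.22% to 5.44% in the other 5 libraries. Monocyte/macrophage-like cells gave 34.4% in BP 1.

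T-like Tgfb1 varied most by library. It stood at 278 CPM in UT, 90.1 and 104 CPM in IgG 1 and IgG 2, 306 and 75.5 CPM in BP 1 and BP 2, 108 CPM in BPI and 137 CPM in CD40. UT and BP 1 were high and the other 5 libraries lay between 75.5 and 137 CPM, so the BP libraries enclosed both IgG libraries. Against IgG, UT differed by a log2 fold change of 1.46 ± 0.52 (SE), which did not pass the edgeR quasi-likelihood test (adjusted p = 0.123), and BP by 0.72.

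**Figure D1:**
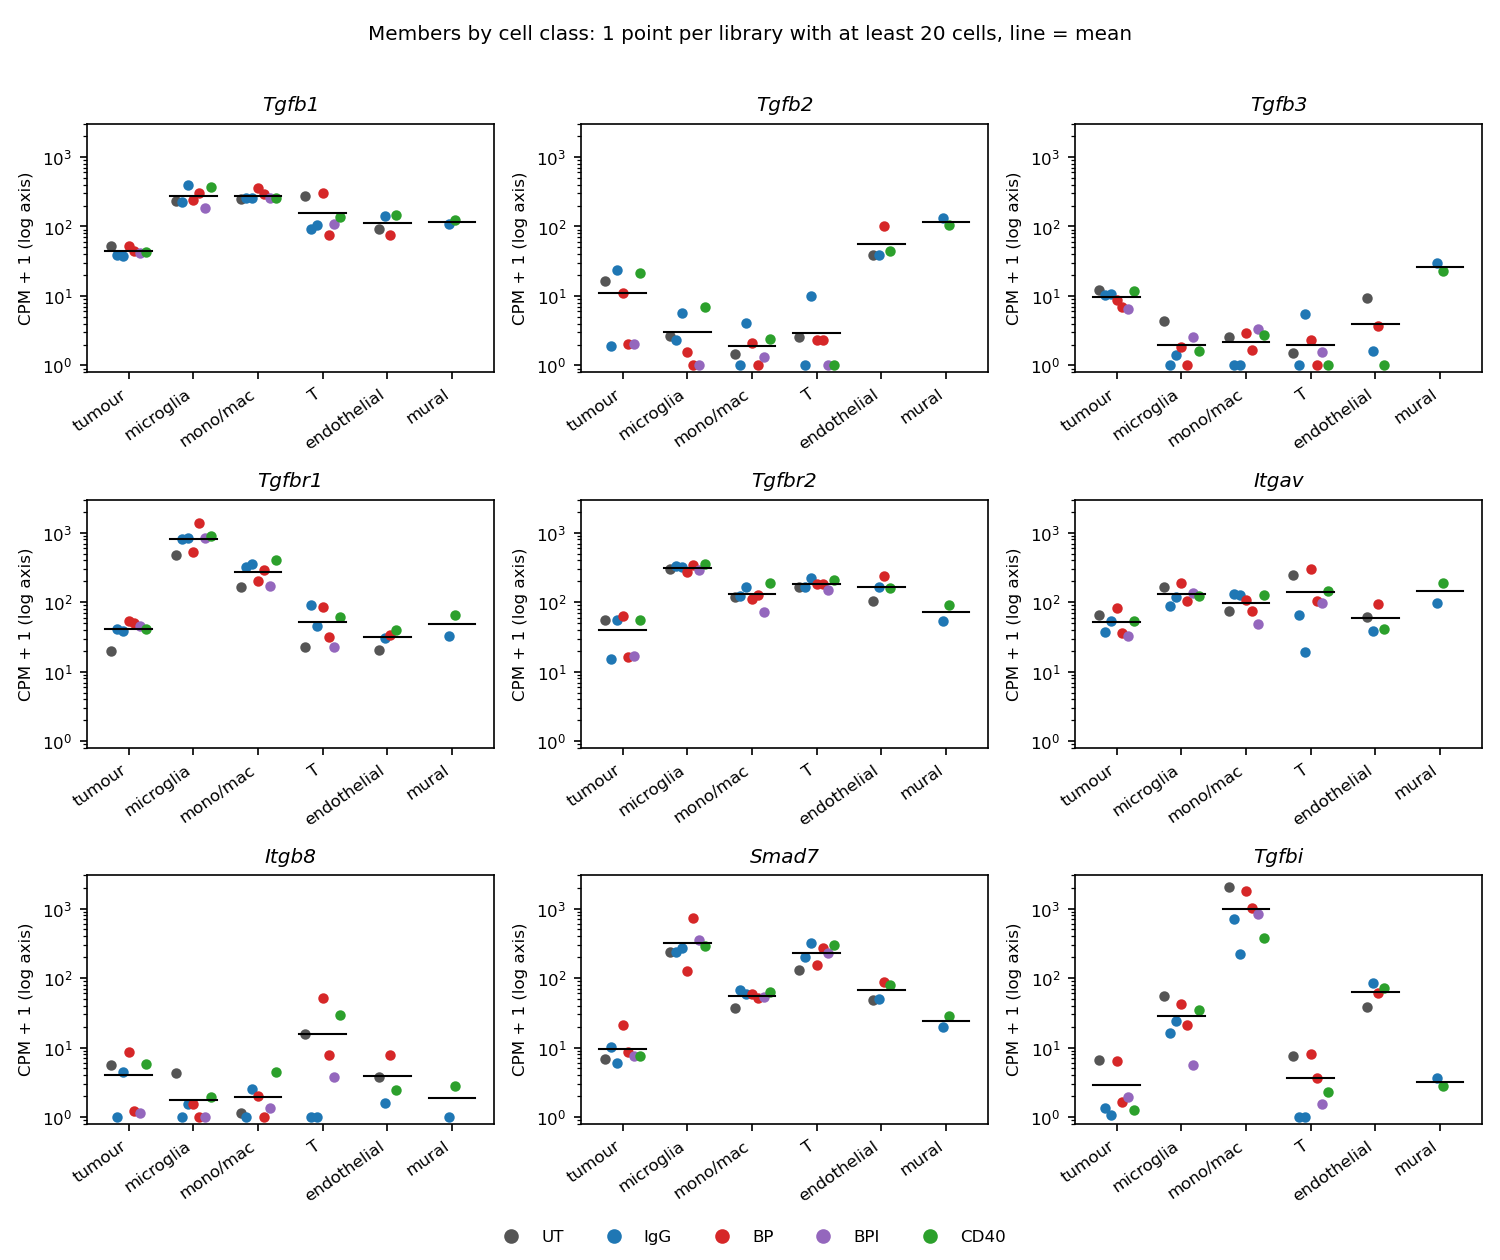
Level of each of the 9 members (CPM + 1, log axis) in the 6 cell classes. Each point is 1 library with at least 20 cells of the class, coloured by group, and the line is their mean. Tgfb1 is higher in leukocytes than in tumour-like cells, Tgfbr1 is highest in microglia-like cells, Tgfb2 and Tgfb3 in mural-like cells, and Tgfbi in monocyte/macrophage-like cells.

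Tgfb2, a ligand with roles in vessels and in epithelial development, had the reverse distribution. Of the 6 classes it was highest in mural-like cells, at 108 CPM pooled (166 UMIs, 95% exact Poisson interval 92.1 to 126), followed by endothelial-like cells at 46.1 CPM (302 UMIs, 41.1 to 51.6). Clusters 20 (554 cells) and 24 (310 cells) stayed unnamed and so outside the tumour-like class, though each raised all 12 tumour markers. They held Tgfb2 at 85.8 and 131.7 CPM pooled. All unnamed cells together held 5.26% of the Tgfb2 UMIs in IgG 1 and 39.1% in BP 1, the lowest and the highest library. In the 4 libraries with 20 endothelial-like cells Tgfb2 stood in these cells at 37.7 CPM in UT, 37.4 in IgG 2, 102 in BP 1 and 42.6 in CD40. BP 1 was the high library, with 74 UMIs from 40 cells, and with no second BP library of that size the groups cannot be compared. Leukocyte classes held a median of 1.35 CPM or less over the libraries, from 97 UMIs in microglia-like, 31 in monocyte/macrophage-like and 20 in T-like cells. Free RNA is released by broken cells and captured with every droplet. Its estimated share of the Tgfb2 UMIs in microglia-like cells was 25.1% in IgG 2 and 20.3% in CD40, the libraries with the most such UMIs, and in monocyte/macrophage-like cells it was 33.9% to 100% in the 5 libraries with any.

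In tumour-like cells Tgfb2 followed the library names. It was at 0.889 CPM in IgG 1, 1.06 in BP 2 and 1.04 in BPI, and at 15.2 in UT, 22.6 in IgG 2, 9.93 in BP 1 and 20.4 in CD40. The 3 low libraries and the 4 high libraries did not overlap, and each set contained an isotype and a BP library. Tgfb3, the third ligand, did not separate in this way. Its tumour-like level was 9.44 and 9.63 CPM in IgG 1 and IgG 2, 7.80 and 6.01 CPM in BP 1 and BP 2, 5.51 CPM in BPI, 11.04 CPM in UT and 10.8 CPM in CD40.

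Tgfb3 was also a transcript of tumour-like and mural-like cells. Tumour-like cells exceeded microglia-like cells by a log2 difference of 1.19 ± 0.31 (SD, n = 7), monocyte/macrophage-like cells by 1.13 ± 0.38 and T-like cells by 1.20 ± 0.38, each with an adjusted p of 0.0272 in the exact sign-flip test. Mural-like cells held 24.7 CPM pooled, from 38 UMIs (95% exact Poisson interval 17.5 to 33.9), while endothelial-like cells held 1.83 CPM from 12 UMIs. Microglia-like cells held 15 Tgfb3 UMIs in all, T-like cells 17 and monocyte/macrophage-like cells 57, and the tumour-like cells 5002.

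A total of 4 members differed between the 3 tumour-like samples of consecutive names and the other 4. This edgeR contrast was added after the clusters had been seen, and 13% of the 18348 genes tested passed it (29.3% at an unadjusted p under 0.05). All 9 members were tested, with a median log2 fold change of -0.66 beside -0.07 over all genes, and 4 passed, each lower in the 3 libraries. Tgfb2 was lower by a log2 fold change of -3.88 ± 0.35 (SE, adjusted p = 0.000544) and Tgfbr2 by -1.68 ± 0.14 (adjusted p = 0.000429). Itgb8 was lower by -5.09 ± 0.75 (adjusted p = 0.0043), and Itgav by -0.66 ± 0.18 (adjusted p = 0.048).

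The values behind these contrasts are as follows. Tgfbr2 was at 14.1, 15.3 and 15.9 CPM in IgG 1, BP 2 and BPI, and at 54.2 in UT, 54.2 in IgG 2, 62.6 in BP 1 and 54.2 in CD40. Itgb8 was at 0.0141, 0.233 and 0.149 CPM in IgG 1, BP 2 and BPI, from 1, 13 and 7 UMIs, and at 3.47 to 7.75 CPM in the other 4. Of the BP 2 UMIs, 11 came from 75 cells of cluster 3. Of the BPI UMIs, 2 came from 54 cells of cluster 3 and 3 from 28 cells of cluster 6. Both clusters were filled mostly by IgG 2 and CD40. In these cluster 3 cells of BP 2 and BPI, Tgfbr2 was at 47.2 and 52.8 CPM, Tgfb2 at 7.09 and 5.66, and Itgav at 28.3 and 26.4. Itgav was at 36.2, 34.7 and 31.6 CPM in the 3 libraries, and at 64.2 in UT, 52.4 in IgG 2, 81.0 in BP 1 and 52.7 in CD40. For each of the 4 genes the 3 libraries lay below all of the other 4, with no overlap. In microglia-like cells of the same libraries Tgfbr2 did not separate, at 288 to 340 CPM in the 3 libraries and 269 to 349 CPM in the other 4. Of the 9 members, Tgfbi (4.64 to 19.8 against 23.4 to 54.0 CPM) and Itgb8 (0 UMIs against 0.526 to 3.37 CPM) did separate there, the latter from 2 to 9 UMIs a library in the other 4 and so at the limit of detection. The Itgav call was lost when any of IgG 1, IgG 2, BP 2 or BPI was left out, with adjusted p values from 0.0573 to 0.184. In all, the Itgav call was lost in 5 of the 9 alternatives run for this contrast. The other 3 calls held in each leave-one-out fit.

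**Figure D2:**
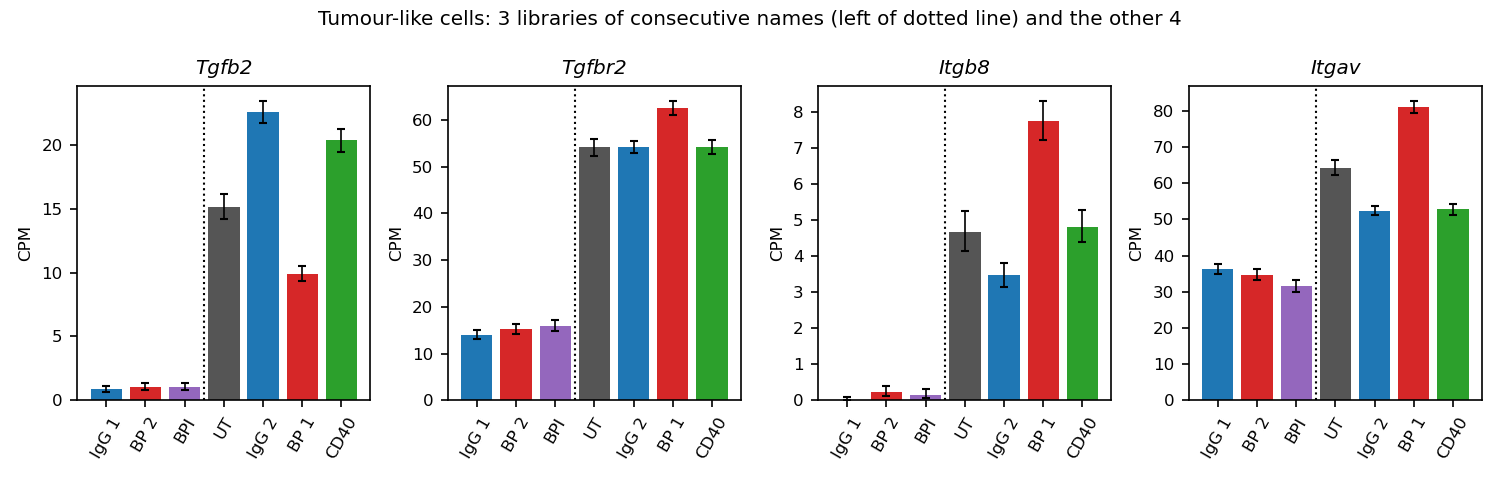
Level (CPM, bars with 95% exact Poisson intervals) of Tgfb2, Tgfbr2, Itgb8 and Itgav in tumour-like cells of each library, coloured by group. The 3 libraries of consecutive names left of the dotted line lie below the other 4 for each gene, and each side holds 1 IgG and 1 BP library.

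The promoters of Tgfb2 and Tgfbr2 are shown because these 2 members moved together between the tumour-like samples and encode a ligand and a receptor of the same pathway. Each run holds the 250 bases before the RefSeq transcription start on GRCm38.p6, read 5′ to 3′ on the minus strand, with matches to any of 5 motifs in capitals. Tgfb2 lies at chr1:186705990-186706239 and Tgfbr2 at chr9:116175364-116175613.
Tgfb2: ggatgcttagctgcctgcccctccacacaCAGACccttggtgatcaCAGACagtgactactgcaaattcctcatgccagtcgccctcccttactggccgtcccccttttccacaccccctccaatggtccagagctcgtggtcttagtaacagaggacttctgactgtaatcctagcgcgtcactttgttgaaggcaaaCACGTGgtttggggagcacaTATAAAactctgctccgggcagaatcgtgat
Tgfbr2: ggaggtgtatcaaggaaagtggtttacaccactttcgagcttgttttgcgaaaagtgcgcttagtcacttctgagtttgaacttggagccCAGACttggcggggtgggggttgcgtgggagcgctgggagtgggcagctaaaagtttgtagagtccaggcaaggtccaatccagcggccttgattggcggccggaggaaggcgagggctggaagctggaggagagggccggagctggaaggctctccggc
A set of 5 motifs was searched for on both strands, and no matches overlapped. The SMAD-binding letters CAGAC occurred at 2 places in Tgfb2, from 221 to 217 and from 204 to 200 bases before the start, and at 1 place in Tgfbr2, from 160 to 156 bases before it. Of the 32851 RefSeq promoter windows of this length, 42.2% hold those letters. The E-box searched for was CACGTG, which Tgfb2 held from 51 to 46 bases before the start and which 6.02% of windows hold. The letters TATAAA, a core promoter element, stood in Tgfb2 from 31 to 26 bases before the start and are found in 12.4% of windows. The AP-1 letters TGANTCA, held by 6.75% of windows, were in neither run. The Sp1 letters GGGCGG, held by 32.7%, were in neither run. The promoter table matched 7 of the 9 members. Such matches describe the sequence and are not evidence of binding.

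Among the integrin chains, Itgav was shared widely and Itgb8 was not. Itgav, which pairs with several beta chains, held a median of 124 CPM in microglia-like cells, 105 in monocyte/macrophage-like, 104 in T-like and 52.4 in tumour-like cells. Tumour-like cells were lower than microglia-like cells by -1.32 ± 0.30 (SD, n = 7) and lower than monocyte/macrophage-like cells by -0.88 ± 0.55, both with an adjusted p of 0.0272 in the exact sign-flip test. No pair of leukocyte classes differed beyond the spread. Mural-like cells held 155 CPM pooled and endothelial-like cells 48.4 CPM.

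In T-like cells Itgav was the one member whose level passed a comparison of groups. It stood at 243 CPM in UT, at 65.5 and 18.0 CPM in IgG 1 and IgG 2 (8 and 4 UMIs), at 300 and 104 CPM in BP 1 and BP 2 (3108 and 77 UMIs), at 95.3 CPM in BPI and at 144 CPM in CD40. Both IgG libraries had the lowest values of the 7, but the 95% exact Poisson interval of IgG 1 (28.3 to 129 CPM) covers the values of BP 2 and BPI. Itgav rose in BP against IgG by a log2 fold change of 2.23 ± 0.53 (SE, n = 2 and 2 libraries, adjusted p = 0.0191 in edgeR's quasi-likelihood test), where 0.748% of 9228 genes passed. It also rose in UT against IgG by 2.68 ± 0.58 (adjusted p = 0.00165), where 2.56% of 9381 genes passed. UT is 1 library, assumed in this fit to vary like the replicated groups. The UT call was lost with DESeq2 (2.59, adjusted p = 0.0579) and without IgG 2 (1.96, adjusted p = 0.328). The log2 fold change was 1.46 ± 0.60 in BPI against IgG (adjusted p = 0.4996) and 1.88 ± 0.60 in CD40 against IgG (adjusted p = 0.546). Neither passed, and each of these also rests on 1 treated library. The log2 fold change of BPI against BP was -0.77 (adjusted p = 0.9997).

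The IgG libraries give the fewest T-like cells, 39 and 58, at a median of 2469 and 3514 UMIs per cell, against 1293 cells at 6123 UMIs in BP 1 and 228 cells at 2868 UMIs in BP 2. The BP call was lost without IgG 2 (log2 fold change 1.47, adjusted p = 0.723), without BP 1 (1.51, adjusted p = 0.449), with DESeq2 (2.15, adjusted p = 0.309) and with free RNA subtracted (2.47, adjusted p = 0.0856). With UT pooled into the controls, the BP difference was 0.56 (adjusted p = 0.999 in edgeR). The BP call was also lost with the replicate number as a block. It was kept with the crossed pairing (IgG 1 with BP 2, IgG 2 with BP 1), which was chosen after seeing the data. IgG 2 and BP 1 also differed in their T-like cells, with 6.9% and 74.8% of them in cluster 15. The kept call is therefore not read as support. Within the libraries of consecutive names, Itgav was at 65.5 CPM in IgG 1, 104 in BP 2 and 95.3 in BPI, and at 18.0 CPM in IgG 2 and 144 in CD40. The summed microglia markers in the T-like samples were at 319 and 527 CPM in IgG 1 and IgG 2, 93.9 in UT, 101 and 259 in BP 1 and BP 2, 243 in BPI and 384 in CD40, with 1 to 5 of the 9 at 0. The summed T markers were lowest in the IgG libraries, at 4063 and 4544 CPM in IgG 1 and IgG 2, 7001 in UT, 5023 and 5969 in BP 1 and BP 2, 6306 in BPI and 5704 in CD40. The summed monocyte/macrophage markers were at 1564 and 1249 CPM in IgG 1 and IgG 2, 2148 in UT, 1567 and 2534 in BP 1 and BP 2, 2945 in BPI and 802 in CD40, with 0 to 6 of 11 at 0. The monocyte/macrophage list includes Ly6c2, which is also among the leading genes of T-like cluster 13. That sum can therefore also hold transcripts of the T-like cells themselves. The part of these sums in the result was not tested.

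Itgav differed between the 2 T-like clusters in every library that had 20 cells of both. In cluster 13 it was at 68.3 CPM in UT, 53.7 and 19.9 in IgG 1 and IgG 2, 112 and 58.4 in BP 1 and BP 2, 65.1 in BPI and 67.3 in CD40. In cluster 15 it was at 277 CPM in UT, 334 and 371 in BP 1 and BP 2, 419 in BPI and 574 in CD40. The 5 values of cluster 15 lay above all 7 of cluster 13. Cluster 15 made up 70.1% of T-like cells in UT and 74.8% in BP 1, and 6.9% in IgG 2, 7.2% in BPI, 10.3% in IgG 1, 13.6% in BP 2 and 17.1% in CD40. UT and BP 1, with most of their T-like cells in cluster 15, also had the highest Itgav over all T-like cells. Within cluster 13 both IgG libraries were the lowest, and within cluster 15 UT and BP 1 were the lowest. The members were kept out of the genes used for clustering, but clusters and members come from the same cells, so this is a description without a test.

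Itgb8, the partner chain that makes the activating integrin, was scarce in most cells. T-like cells held 36.6 CPM pooled (586 UMIs, 95% exact Poisson interval 33.7 to 39.7), tumour-like cells 3.60, endothelial-like cells 1.99, monocyte/macrophage-like cells 0.977 and microglia-like cells 0.729 CPM. BP 1 gave 526 of the T-like UMIs, the median over the 7 T-like samples was 6.74 CPM, and T-like cells passed the exact sign-flip test against no other class (adjusted p = 0.127 against tumour-like, and 0.0865 against microglia-like and monocyte/macrophage-like cells). Mural-like cells held 11.7 CPM pooled, but 16 of their 18 UMIs came from 19 cells of BP 1. By library, T-like cells held 14.9 CPM in UT (29 UMIs), 50.8 and 6.74 in BP 1 and BP 2 (526 and 5 UMIs), 2.71 in BPI (5 UMIs) and 27.9 in CD40 (21 UMIs). Both IgG libraries had 0 UMIs, where 3 counts would be 24.6 CPM in IgG 1 and 13.5 CPM in IgG 2, and the two-sided exact 95% Poisson upper bounds are 30.2 and 16.6 CPM. BP 2 and BPI lay below all 4 of these limits, so no difference from IgG was detectable there at this depth, while BP 1 lay above all 4. UT against IgG 2 and CD40 against IgG 1 lay between the 3-count value and the upper bound, and are not called either way. In edgeR no comparison of Itgb8 with IgG passed, with an adjusted p of 0.0873 for BP, 0.178 for UT, 0.507 for CD40 and 0.948 for BPI. The difference of BPI from BP was -3.17 ± 0.89 on the log2 scale (adjusted p = 0.191 in edgeR), where 0.173% of genes passed. It rested on BP 1, since without that library it was -1.23. The difference passed without BP 2, IgG 1 or IgG 2, but each such fit leaves 1 library in a group, so these passes are not read as calls. Without BP 2 both sides are 1 library, and the spread came from the IgG libraries only. With all libraries kept, the difference passed at a minimum of 2000 UMIs per cell, where BPI is still 1 library.

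Most of the T-like Itgb8 lay in cells with a UMI of Foxp3, the transcription factor that defines regulatory T cells. Of the 586 Itgb8 UMIs, 417 (71.2%) came from the 300 of 2618 T-like cells with a Foxp3 UMI. Those cells held 191 CPM pooled (95% exact Poisson interval 173 to 210). The 921 T-like cells with Cd8a and without Foxp3 held 0.454 CPM from 3 UMIs (0.0935 to 1.33), and the 1397 with neither held 23.1 CPM (19.7 to 26.9). Cells with Foxp3 held 71.0 CPM of Itgb8 in UT (18 UMIs), 218 in BP 1 (376 UMIs), 61.3 in BP 2 (2 UMIs), 22.6 in BPI (2 UMIs) and 281 in CD40 (19 UMIs). IgG 1 and IgG 2 had 2 and 1 such cells and no Itgb8 UMI. Itgav in the same cells was 528 CPM, against 198 CPM in cells with Cd8a alone and 207 CPM in cells with neither. BP 1 held 224 of the 300 cells with Foxp3. Without BP 1, Itgav was at 403 CPM in cells with Foxp3, 116 with Cd8a alone and 137 with neither, and Itgb8 at 90.4 CPM, 0 UMIs and 6.23 CPM. In UT alone, Itgav was at 315, 279 and 216 CPM. This split was chosen after the values were seen, and since a Foxp3 UMI is found more easily in deeper cells, the cells with neither may include regulatory T cells.

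**Figure D3:**
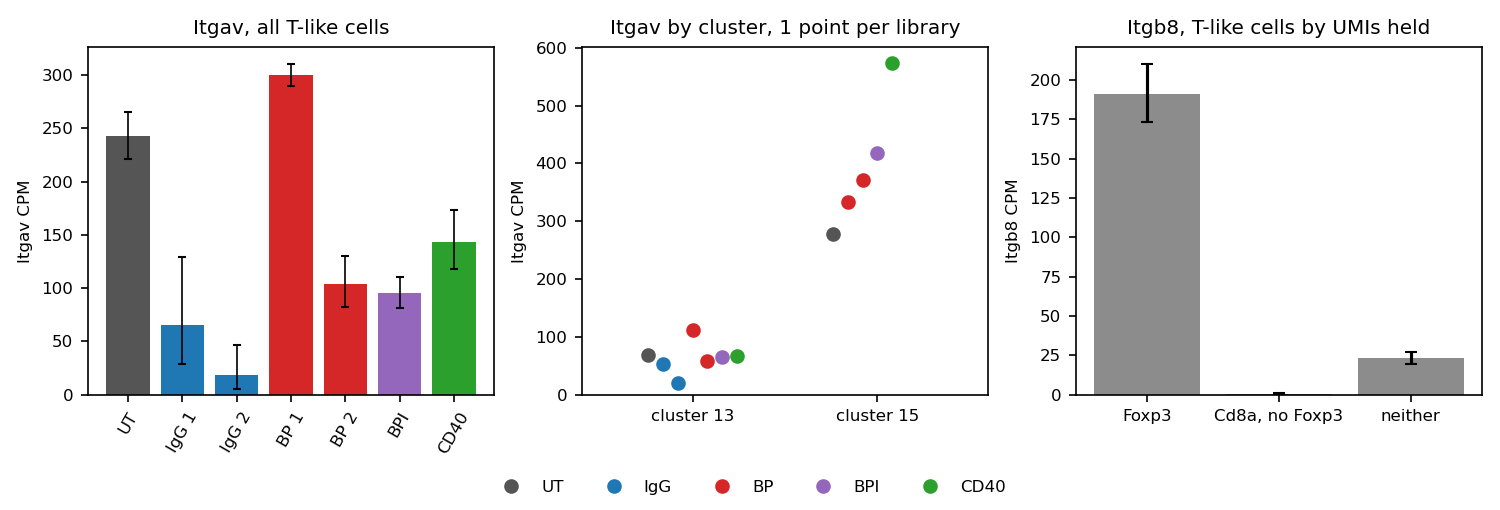
Left, Itgav (CPM with 95% exact Poisson intervals) in T-like cells of each library. Middle, Itgav in T-like clusters 13 and 15, 1 point per library with at least 20 cells. Right, Itgb8 (CPM, pooled over libraries, with 95% exact Poisson intervals) in T-like cells with a Foxp3 UMI, with Cd8a and no Foxp3, and with neither. Both IgG libraries are the lowest for Itgav, every point of cluster 15 lies above those of cluster 13, and Itgb8 is highest in cells with Foxp3.

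Tgfbr1, the type I receptor kinase, marked microglia-like cells. They held 474 CPM in UT, 808 and 849 in IgG 1 and IgG 2, 528 and 1367 in BP 1 and BP 2, 852 in BPI and 900.5 in CD40. Monocyte/macrophage-like cells held 165 to 408 CPM (median 286), T-like cells 21.7 to 90.1 (median 45.1), and tumour-like cells 18.7 to 52.1 (median 40.8). Microglia-like cells exceeded monocyte/macrophage-like cells by a log2 difference of 1.59 ± 0.48 (SD, n = 7) and T-like cells by 3.99 ± 0.96, and tumour-like cells were lower than microglia-like cells by -4.16 ± 0.45. Each had an adjusted p of 0.0272 in the exact sign-flip test. T-like and tumour-like cells did not differ beyond the spread (adjusted p = 0.628 in the exact test).

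Microglia-like cells of BP 1 and UT were the 2 lowest for Tgfbr1, and BP 2 the highest, so the BP libraries enclosed both IgG libraries. By cluster, Tgfbr1 was at 960 to 1677 CPM in cluster 14 (5 libraries), 310 to 790 in cluster 18 (5 libraries), and 502 and 524 in cluster 27, in UT and BP 1. Neither cluster 14 nor cluster 18 reached 20 cells in UT or BP 1, so no cluster holds both BP libraries.

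Tgfbr2, the type II receptor that binds the ligand, was even across microglia-like samples, at 300 CPM in UT, 327 and 326 in IgG 1 and IgG 2, 269 and 340 in BP 1 and BP 2, 288 in BPI and 349 in CD40. T-like cells held 147 to 225 CPM (median 183), monocyte/macrophage-like cells 70.8 to 188 (median 124), and pooled endothelial-like cells 162 CPM (95% exact Poisson interval 152 to 172). The order microglia-like, T-like, monocyte/macrophage-like, tumour-like held between neighbours. Microglia-like cells exceeded T-like cells by 0.77 ± 0.19 on the log2 scale, T-like cells exceeded monocyte/macrophage-like cells in 7 of 7 libraries (-0.52 ± 0.27 as the latter minus the former), and tumour-like cells were lower than monocyte/macrophage-like cells by -1.77 ± 0.74. Each passed with an adjusted p of 0.0272 in the exact sign-flip test. No Tgfbr2 comparison between groups passed in any of the 4 classes.

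Smad7, the feedback inhibitor, was highest in microglia-like and T-like cells. Microglia-like cells held 235 CPM in UT, 239 and 273 in IgG 1 and IgG 2, 126 and 722 in BP 1 and BP 2, 351 in BPI and 292 in CD40. BP 1 and BP 2 were the lowest and the highest of the 7, so the BP group spanned all others. The summed monocyte/macrophage markers in these microglia-like samples were highest in BP 1 (1578 CPM, 1 of 11 at 0) and lowest in BP 2 (109 CPM, 4 of 11 at 0), and at 283 to 1054 CPM in the other 5 (1 to 5 of 11 at 0). The summed microglia markers were lowest in BP 1 (4887 CPM), highest in BP 2 (12867 CPM) and at 8764 to 10976 CPM in the other 5, with none of the 9 at 0. In the BP libraries the microglia sum thus moved with Smad7 and Tgfbr1 and the monocyte/macrophage sum ran against them, and their part in these values was not tested. T-like cells held 131 to 320 CPM (median 227), monocyte/macrophage-like cells 36.3 to 67.1 (median 58.1) and tumour-like cells 4.98 to 20.02 (median 6.62). Tumour-like cells were lower than microglia-like cells by -4.46 ± 1.06 (SD, n = 7) and lower than T-like cells by -4.10 ± 0.78, each with an adjusted p of 0.0272 in the exact sign-flip test. Microglia-like and T-like cells did not differ beyond the spread (adjusted p = 0.23 in the exact test). In microglia-like cluster 14 Smad7 was at 426 to 768 CPM, in cluster 18 at 129 to 565 CPM, and in cluster 27 at 267 CPM in UT and 125 CPM in BP 1.

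Tgfbi, a matrix protein that binds integrins and collagen, belonged to monocyte/macrophage-like cells. They held 2057 CPM in UT, 697 and 223 in IgG 1 and IgG 2, 1769 and 1004 in BP 1 and BP 2, 841 in BPI and 379 in CD40. Microglia-like cells held 4.64 to 54.0 CPM (median 23.4), and were lower by a log2 difference of -4.80 ± 1.22 (SD, n = 7, adjusted p = 0.0272 in the exact sign-flip test). Pooled endothelial-like cells held 64.5 CPM. Monocyte/macrophage-like cells supplied 87.3% to 97.04% of all Tgfbi UMIs in 5 libraries, 63.4% in CD40 and 40.4% in IgG 2. Tumour-like cells held 0.0838 to 5.57 CPM, of which estimated free RNA could account for 23.4% to 95.7%.

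UT, BP 1 and BP 2 were the 3 highest libraries for Tgfbi, and both BP libraries lay above both IgG libraries. The difference did not pass across all genes. BP against IgG gave a log2 fold change of 1.66 ± 0.64 (SE, n = 2 and 2, adjusted p = 0.566 in edgeR's quasi-likelihood test), and UT against IgG gave 2.52 ± 0.73 (adjusted p = 0.234). BPI against IgG gave 1.40 (adjusted p = 0.547). Of all genes in this class, 0% passed in BP, BPI and CD40 against IgG and in BPI against BP, and 0.138% in UT against IgG. UT against IgG passed with DESeq2 (adjusted p = 0.0266), without a filter on low counts (adjusted p = 0.00741) and without BP 2, which shares the spread (adjusted p = 0.0364). BP against IgG passed without BP 2 (1.89, adjusted p = 0.0308).

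Within libraries of consecutive names Tgfbi was at 697 CPM in IgG 1, 1004 in BP 2 and 841 in BPI, and at 223 CPM in IgG 2 and 379 in CD40. Within cluster 11 it was at 2102 CPM in UT, 700.0 and 212 in IgG 1 and IgG 2, 1807 and 1081 in BP 1 and BP 2, 895 in BPI and 391 in CD40. The order of the libraries was the same as over the whole class. Cluster 11 made up most of the class in every library but BP 1, from 43 of 58 cells in IgG 2 to 521 of 553 in UT. The same order was therefore nearly fixed there, and in BP 1 the cluster held only 22 of 1772 cells. In the smaller cluster 21 Tgfbi was at 327 CPM in UT, 1577 in BP 1, 263 in BP 2, 255 in BPI and 270 in CD40, so there BP 1 stood apart and the other 4 lay close together. The summed microglia markers in this class ran against Tgfbi, at 1427 and 3110 CPM in IgG 1 and IgG 2, 1989 in CD40, 960 in BP 2, 749 in UT, 620 in BPI and 420 in BP 1, with 0 to 2 of the 9 at 0. The part of these markers in the result was not tested.

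**Figure D4:**
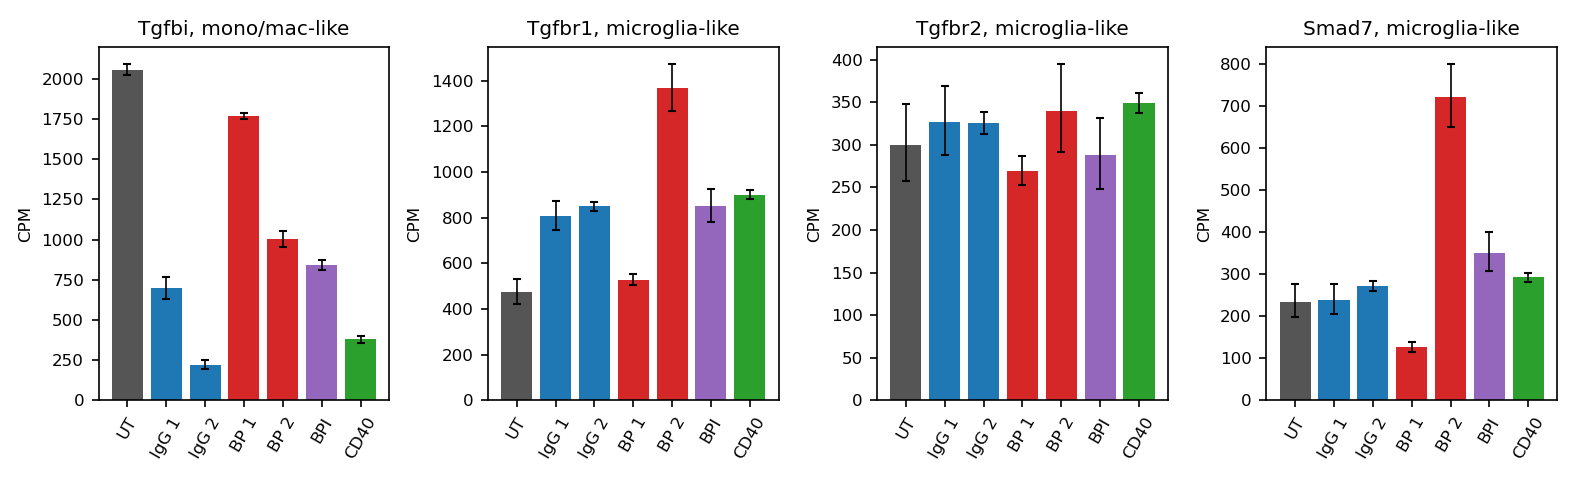
Level (CPM, bars with 95% exact Poisson intervals) in each library of Tgfbi in monocyte/macrophage-like cells and of Tgfbr1, Tgfbr2 and Smad7 in microglia-like cells, coloured by group as in the other plots. UT and BP 1 are highest for Tgfbi and lowest for Tgfbr1, Tgfbr2 varies little, and BP 1 and BP 2 are the ends of the range for Smad7.

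Over the 5 comparisons between groups and the 4 classes with 20 cells in every library, the members gave 140 tests. 2 passed, both of Itgav in T-like cells, and 19 had an unadjusted p under 0.05. In the order BP, BPI and CD40 against IgG, BPI against BP and UT against IgG, the members at an unadjusted p under 0.05 were 1, 0, 0, 0 and 2 of 9 in tumour-like cells, where the shares over all genes were 2.06%, 0.983%, 0.0894%, 0.164% and 13.3%. In microglia-like cells they were 0, 0, 0 and 1 of 7 and then 1 of 6, beside 4.61%, 3.22%, 0.341%, 3.08% and 8.18%. In monocyte/macrophage-like cells they were 1, 0, 0 and 0 of 6 and then 1 of 7, beside 7.86%, 11.1%, 0.987%, 2.15% and 11.8%. In T-like cells they were 2, 2, 2, 2 and 4 of 6, beside 7.85%, 6.72%, 3.88%, 2.51% and 14.1%. No member passed in tumour-like or microglia-like cells, where 0% of all genes passed in each of the 5 comparisons with edgeR. DESeq2 called Tgfbi in 2 classes for UT against IgG and no member in the other 4 comparisons. In T-like cells 0.574% of genes passed in BPI against IgG and 0.108% in CD40 against IgG, and no member did.

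The members' median log2 fold change in T-like cells was 0.22 in BP against IgG, 0.58 in UT against IgG and -0.64 in BPI against BP. The medians over all genes in these comparisons were 0.03, 0.05 and -0.01. In tumour-like cells the members' medians were 0.35 in BP, -0.27 in BPI and 0.09 in CD40 against IgG, beside 0.00201, -0.05 and 0.00136 over all genes. The comparisons against IgG share the same 2 IgG libraries.

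Of the 54 pairs of a member and 2 classes, 34 passed the exact sign-flip test. Itgb8 gave 1 of these (tumour-like above microglia-like, by 0.41 ± 0.45 at levels under 8 CPM), and 3 passed narrowly, at an adjusted p of 0.0496 (Tgfb1 in monocyte/macrophage-like above T-like cells, and Tgfb2 in tumour-like above microglia-like and T-like cells).

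A further 37 genes of the pathway were followed from a list and are given by role, as means over libraries with at least 20 cells. Of the genes that hold latent TGF-beta, Nrros, the anchor known from microglia, was at a mean of 119 CPM in microglia-like and 109 in monocyte/macrophage-like cells and led both, as it did endothelial-like (78.1 CPM) and T-like cells (25.3 CPM). Ltbp4, a latent TGF-beta binding protein, led mural-like cells at 125 CPM, and Ltbp3, another, led tumour-like cells at 32.2 CPM. Lrrc32, which presents TGF-beta on regulatory T cells and on vessels, was at 80.5 CPM in mural-like cells (2 libraries), 10.1 in endothelial-like cells (4 libraries) and 2.52 CPM in T-like cells.

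Among the other activators, Itgb5, a partner of the alpha-v chain, led microglia-like cells at a mean of 625 CPM. Itgb1, the broadly used beta chain, led T-like, endothelial-like, mural-like and tumour-like cells, at 295, 499, 818 and 233 CPM. In monocyte/macrophage-like cells Itgb5 stood at 228 CPM, Mmp14 at 205 and Itgb1 at 196. Of the other receptors and co-receptors, the co-receptor Eng led endothelial-like cells at 668 CPM, the co-receptor Tgfbr3 led T-like cells at 46.2 CPM, and Acvrl1, a type I receptor kinase, led monocyte/macrophage-like cells at 50.4 CPM. Eng also led mural-like cells (121 CPM), and Acvr1, another type I receptor kinase, led microglia-like (66.3 CPM) and tumour-like cells (24.0 CPM). Of the transducers, Smad4 led tumour-like (75.0 CPM), T-like (71.3 CPM), endothelial-like (78.3 CPM) and mural-like cells (69.8 CPM). Smad3 led microglia-like cells (97.2 CPM) and Smad2 monocyte/macrophage-like cells (41.7 CPM), both of them SMADs that the receptor phosphorylates.

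The inhibitors were led by Pmepa1 in microglia-like cells (498 CPM), monocyte/macrophage-like cells (312 CPM) and T-like cells (186 CPM), a gene known to be induced by TGF-beta. Skil and Ski, the SMAD co-repressors, were at 401 and 319 CPM in microglia-like cells. Pmepa1 also led endothelial-like cells (201 CPM), Ski led mural-like cells (112 CPM), and Smurf2, a ubiquitin ligase that acts with Smad7, led tumour-like cells (97.7 CPM). Of the target genes, Cdkn1a led microglia-like (223 CPM), monocyte/macrophage-like (473 CPM), T-like (46.2 CPM) and tumour-like cells (404 CPM), and Id3 led endothelial-like cells at 557 CPM and mural-like cells at 239 CPM. Itgae, the integrin of tissue-resident T cells, was at 27.9 CPM in T-like cells.

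Of the 37 listed genes, 21 to 36 were tested in a class, in 589 tests over the 5 comparisons. 1 passed and 41 had an unadjusted p under 0.05, beside shares over all genes of 0% to 2.56% and of 0.0894% to 14.1% in the single comparisons. Smad4, the common SMAD that partners the receptor-activated ones, fell in T-like cells of UT against IgG by a log2 fold change of -2.17 ± 0.58 (SE, adjusted p = 0.0197 in edgeR). It was at 25.2 CPM in UT, 106 and 113 CPM in IgG 1 and IgG 2 (13 and 25 UMIs), and 56.6 to 74.8 CPM in the other 4. The UT side is 1 library, assumed to vary like the replicated groups, and the call was lost without IgG 2 (adjusted p = 0.238).

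In tumour-like cells, 33 listed genes were tested between the 3 libraries of consecutive names and the other 4, and 2 passed higher and 1 lower, a share of 3 in 33 beside the 13% of all genes that passed. Pmepa1 was lower by a log2 fold change of -3.31 ± 0.55 (SE, adjusted p = 0.00757), at 2.80 to 3.79 CPM in the 3 libraries and 14.2 to 75.3 CPM in the other 4. Id1, a target that TGF-beta family signals raise or lower by context, was higher by 1.38 ± 0.25 (adjusted p = 0.0114), at 175 to 184 CPM against 55.1 to 108 CPM. Ccn2, a matricellular target, was higher by 6.05 ± 0.998 (adjusted p = 0.00736), at 22.9, 8.401 and 4.09 CPM in IgG 1, BP 2 and BPI and at 0.468 CPM or less in the other 4. The Id1 call was lost without BP 2 (adjusted p = 0.0514) and without BPI (adjusted p = 0.0594). The median of the 33 genes was -0.26, beside -0.07 over all genes.

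The genes whose pattern over 34 library-by-class sums was most like a member were found by Pearson correlation of log2(CPM + 5) among 9787 genes. These sums share libraries and classes, so the correlations are descriptions. Closest to Tgfbr1 were Hpgds (r = 0.963), Trem2 (0.961) and Gm5086 (0.96), and closest to Tgfb2 were the vascular genes Mcam (0.949), Rhoj (0.947) and Col4a1 (0.941). Tgfbi was most like Gda (0.93), Sdcbp (0.927) and Clec4a1 (0.926), and Smad7 like Spata13 (0.937), Klhl6 (0.926) and Elmo1 (0.922). Tgfbr2 shared Elmo1 (0.925) and Spata13 (0.904) with Smad7, followed by Pmepa1 (0.904). Tgfb1 was most like Cap1 (0.917), Cln3 (0.912) and Rap1b (0.909), and Tgfb3 like Chn1 (0.899), Rcn3 (0.896) and Cryab (0.889). Itgav and Itgb8 had weaker neighbours, Plekha2 (0.728), Bcl2l1 (0.727) and Gtf2f2 (0.72) for the former and Lsm14a (0.782), Jazf1 (0.757) and Ccl1 (0.733) for the latter.

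On GRCm38, from the GENCODE annotation, Tgfb1 lies on chromosome 7 (25687002 to 25705077, plus strand), Tgfb2 on 1 (186622792 to 186705989, minus), Tgfb3 on 12 (86056745 to 86079041, minus), Tgfbr1 on 4 (47353222 to 47414931, plus) and Tgfbr2 on 9 (116084293 to 116175360, minus). Itgav lies on 2 (83724397 to 83806916, plus), Itgb8 on 12 (119158022 to 119238802, minus), Smad7 on 18 (75367529 to 75395935, plus) and Tgfbi on 13 (56609523 to 56639562, plus). Each is annotated as protein-coding.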

How the data were processed

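Gene counts of all barcodes of 7 droplet libraries were used as deposited by the authors, as UMI counts. The file headers name Cell Ranger 4, while the submitters' processing notes name Cell Ranger 7.0.1 and the mm10 build; which was used for which file is not given in the sources used here. Cells needed 1000 UMIs, 500 genes and at most 15% mitochondrial UMIs. The barcodes with the highest Scrublet doublet scores were then removed (3207 of 51795), their number per library being set beforehand from its cell count. Leiden clusters (resolution 1) were made without the members and named from marker lists; clusters that failed the naming rule stayed unnamed. The members and lists were chosen with earlier results of these data known.

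UMIs were summed per class and library (classes with at least 20 cells). Groups were compared with edgeR 4.0.16 (R 4.3.3, quasi-likelihood, all groups sharing the spread, Benjamini-Hochberg over all genes). Classes were compared by an exact two-sided sign-flip permutation test. Every member is named; listed genes are named where they passed or had the highest mean of their role in a class; Lrrc32, Mmp14, Skil and Itgae fall outside this rule and were chosen after their values were seen. Alternatives were DESeq2 1.42.0, no filter on low counts, leaving out a library, blocks, other controls, thresholds and clustering. The contrast of libraries by name, the crossed block, and the T cell splits were chosen after seeing the data. The edgeR fits were tested on simulated data, where they missed part of the changed genes in each class, most in tumour-like cells, and where the share of false calls was above the nominal one in tumour-like, microglia-like and monocyte/macrophage-like cells and below it in T-like cells. Depth per library was 68997476 to 186793886 UMIs, and few UMIs limit the smaller classes.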

Additional observations from a re-analysis of the deposited data

Results flagged for a closer look

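Cells outside the 6 described classes held several members at more than 2 times the pooled level of the highest of those classes. These are values of small groups of cells with no comparison between treatments. Tgfb1 was at 799.9 CPM in an unnamed cluster of 43 cells, against 340.4 CPM in microglia-like cells. Of these 43 cells 42 came from BP 1, and the cluster raised all 6 mast/basophil markers but stayed unnamed for low depth. Tgfb2 was at 298.5 CPM in an unnamed cluster of 97 cells with Ttr and Enpp2 among its leading genes, against 107.9 CPM in mural-like cells. Tgfb3 was at 80.5 CPM in an unnamed cluster of 61 cells with Acta2, Tagln and Myh11 among its leading genes, against 24.7 CPM in mural-like cells. Itgb8, at 36.6 CPM in T-like cells, was at 200.2 CPM in 67 oligodendrocyte precursor-like cells, 120.2 CPM in 44 astrocyte-like cells and 90.6 CPM in 118 oligodendrocyte-like cells. In unnamed clusters, Itgb8 was at 243.8 CPM in the 97 cells with Ttr, 138.0 CPM in a cluster of 25 cells, 114.6 CPM in another of 25 cells, 110.0 CPM in 12 cells and 79.3 CPM in 28 cells.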

How the results depend on the processing

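The number of members called in BP against IgG was 1. It was 0 with DESeq2, with the replicate number as a block, with UT pooled into the controls and with free RNA subtracted, and 0 to 3 when 1 library was left out (0 without IgG 2 or BP 1, 3 without BP 2). In UT against IgG it was 1, with 2 under DESeq2 (Tgfbi in 2 classes, Itgav lost), 2 without a filter on low counts, and 0 to 3 leaving 1 library out. In BPI against BP it was 0, with 1 at a minimum of 2000 UMIs per cell (Itgb8 in T-like cells) and 0 to 3 leaving 1 library out. It was 0 in BPI and in CD40 against IgG under every alternative run. Itgav in T-like cells of BPI against IgG turned to -0.22 with UT pooled into the controls. The 34 passed class pairs stayed at 34 under the 4 alternative settings and fell to 0 leaving 1 library out, because 6 libraries give a raw p of 0.03125 at the smallest (0.0527 to 0.0544 adjusted), and no passed pair changed sign. Between the tumour-like libraries of consecutive names and the others, 3 to 4 members passed leaving 1 library out. The replicate numbers did not pair the libraries (correlation -0.69 in tumour-like, 0.05 in microglia-like, -0.20 in monocyte/macrophage-like and -0.08 in T-like cells); with the numbers as a block 0, 10, 16 and 6 genes were called in BP against IgG in these classes. With the crossed pairing (IgG 1 with BP 2, IgG 2 with BP 1), chosen after seeing the data, 6, 0, 422 and 111 were called, and 1 member, Itgav in T-like cells. For that reason these calls are not read as support. Counts over all genes moved more. In T-like cells 69 genes were called in BP against IgG (0 to 235 under the alternatives), 53 in BPI against IgG (0 to 119), 10 in CD40 against IgG (0 to 23), 16 in BPI against BP (0 to 205) and 240 in UT against IgG (59 to 463). In microglia-like cells, where none were called, the highest counts in the same order were 916, 169, 39, 418 and 372, and in tumour-like cells 61, 6, 0, 0 and 878. In monocyte/macrophage-like cells the highest were 809, 832, 54, 340 and, beside 17, 640. The tumour-like contrast of libraries by name called 2392 genes (845 to 4492).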
